A study of Mus musculus with 6 samples.

Results

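The transcripts of MIN6 cells carrying an adenovirus for miR-7b were set against those of MIN6 cells carrying an adenovirus for miR-7a. Of the 6 arrays of the series, 3 form this comparison, 1 labelled AdmiR7b and 2 labelled AdmiR7a, chosen by their labels alone. Another MIN6 array, with an adenovirus for green fluorescent protein (AdGFP), served only as a reference, and the 2 islet arrays were not used. MIN6 is a mouse insulin-secreting beta-cell line kept in culture. Every group carried a virus. For each of the 4 MIN6 arrays the cells received 250 infectious units per cell and were kept 48 h, with glucose at 4.5 g/l and serum at 2%. Polyadenylated RNA was hybridised to Affymetrix mouse expression arrays, and the values are log2 probe set intensities. The series' text gives the miR-7a vector as one for miR-7a2 and calls its infection a duplicate, but does not state that these were independent cultures. P-values therefore measure only the spread between these arrays, which may be technical. It names neither the promoter of the vectors nor the length of their inserts. With 1 AdmiR7b array, what the insert does and what sets any 2 cultures or virus stocks apart cannot be told apart.

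A microRNA is cut from a hairpin precursor, and 1 of its arms guides a silencing complex to messenger RNAs. Pairing runs mainly through the seed, bases 2 to 8 of the mature strand, so microRNAs with the same seed are expected to share many targets, while bases outside it can add to pairing at single sites. miR-7 is among the most abundant microRNAs of endocrine cells of the pancreas, where it lowers genes of secretion and of beta-cell identity. Mouse has 3 miR-7 hairpin genes, which yield miR-7a from Mir7-1 and Mir7-2 and miR-7b from Mir7b. Whether miR-7a and miR-7b do the same to a beta cell is the question behind setting the vectors against each other.

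The sequences below are RefSeq's, on GRCm38.p6, and are shown because the difference between them is the designed difference between the vectors, as far as the labels name it. The hairpins have the mature arms in capitals. Mir7-2 lies on chr7:78888277-78888373, plus strand, and Mir7b on chr17:56242988-56243098, plus strand, and no other gene of the RefSeq table spans either. The third gene, Mir7-1 on chr13:58392779-58392886, minus strand, lies within the span of Hnrnpk and gives the same miR-7a-5p.
Mir7-2 hairpin: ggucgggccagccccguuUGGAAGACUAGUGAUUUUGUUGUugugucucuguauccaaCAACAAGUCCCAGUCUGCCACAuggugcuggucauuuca
Mir7b hairpin: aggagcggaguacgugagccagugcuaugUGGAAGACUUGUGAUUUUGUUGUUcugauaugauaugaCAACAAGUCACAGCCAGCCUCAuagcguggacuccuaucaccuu

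The mature strands follow, 5′ to 3′, with the seed in capitals.
mmu-miR-7a-5p: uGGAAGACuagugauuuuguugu
mmu-miR-7b-5p: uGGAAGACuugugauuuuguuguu
mmu-miR-7a-2-3p: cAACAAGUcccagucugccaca
mmu-miR-7b-3p: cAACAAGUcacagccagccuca
The guide strands miR-7a-5p and miR-7b-5p had the same seed and were identical at 22 of the 23 positions they share. The difference was A10U, counted from 1 at the 5′ end, and miR-7b-5p has 1 base more at its 3′ end, with a length of 24. Of 1679 mature mouse microRNA names in the RefSeq table, 2 had the seed GGAAGAC, these same strands. The opposite arms also shared a seed, AACAAGU, and differed at 4 of 22 positions (C10A, U14C, U16A and A20U). Both arms of the 2 hairpins thus carried the same seeds.

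The arrays were checked before the comparison. On the 3 miR-7 arrays 44.7% to 44.9% of the 45101 probe sets exceeded 4 (log2), and their upper quartile was 7.98 to 8.01. Hybridisation controls averaged 12.2 on both AdmiR7a arrays and 12.3 on AdmiR7b, and 18S ribosomal RNA stood at 13.6 on both AdmiR7a arrays and 13.9 on AdmiR7b (14.0 on AdGFP). The part of these differences in the results was not tested. Beta-cell markers were present, with Ins2 between 15.7 and 15.9, Iapp between 16.1 and 16.2 and Pdx1 between 12.1 and 12.3 on the miR-7 arrays. Of 11 beta-cell markers on the array 10 had a mean of at least 4; the exception was Slc2a2, the rodent beta-cell glucose transporter, at 2.52 on each of them. Markers of immune cells (11 of 11), stromal cells (8 of 9), acinar cells (9 of 10) and duct cells (5 of 6) lay below 4 on all 4 MIN6 arrays. Fewer did among endothelial markers (7 of 11), delta, PP and epsilon markers (3 of 7) and alpha-cell markers (1 of 5). The alpha-cell hormone Gcg stood between 12.7 and 13.4.

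Across the 10369 genes with a mean of at least 4 over the 4 MIN6 arrays, AdmiR7b differed from AdmiR7a replicate 1 by an SD of 0.215 (log2) and from replicate 2 by 0.207, and the replicates from each other by 0.194. At least 0.58 (log2, a 1.5-fold difference) separated AdmiR7b from replicate 1 in 239 genes and from replicate 2 in 182, and the replicates from each other in 179. At a log2 size of 1 these numbers were 37, 35 and 19. The SDs of the differences between the vectors were thus close to that between the AdmiR7a arrays, while more genes lay past 1.

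Genes that lay past 0.58 on the same side of both AdmiR7a arrays numbered 33 with AdmiR7b higher (0.318% of genes tested) and 45 with AdmiR7b lower (0.434%). At a size of 1 they were 6 (0.0579%) and 7 (0.0675%). Most were dim: 50 of the 78 had a mean level between 4 and 6, 24 between 6 and 8, 3 between 8 and 10 and 1 above 10. The mean level mattered to the spread between the replicates as well, which had an SD of 0.340 between 4 and 6 and 0.125 above 10. Just inside the size lay Syt17 (smaller of the differences to both arrays 0.584) and just outside it Smtn (0.579).

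**Figure D1:**
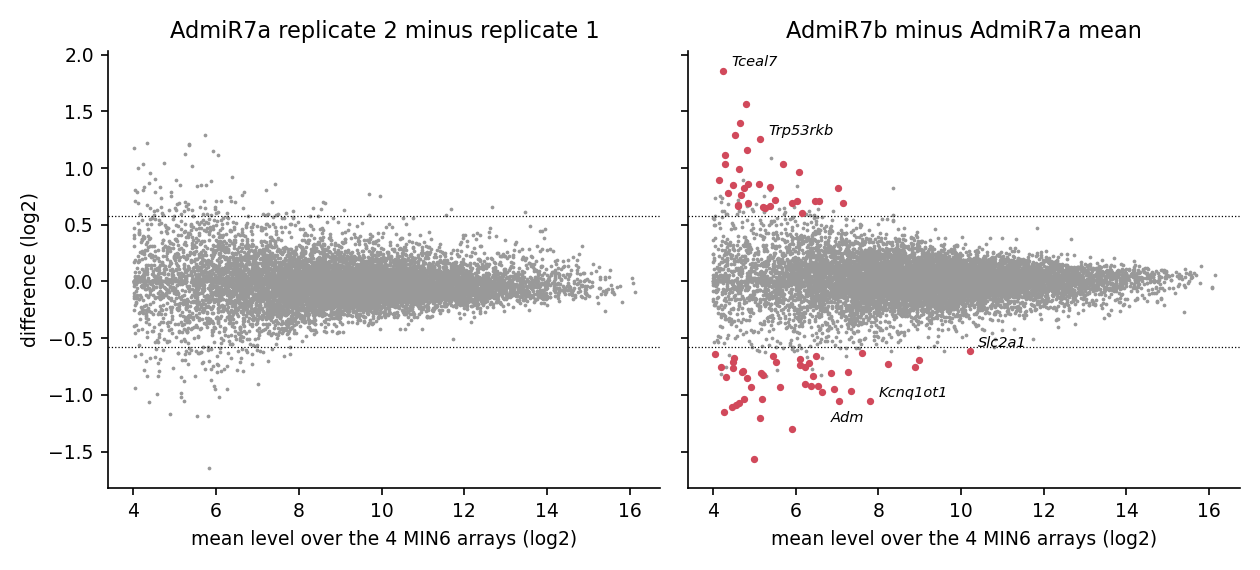
Difference between arrays (log2) against the mean level over the 4 MIN6 arrays (log2), 1 point per gene for 10369 genes, with dotted lines at 0.58 and -0.58. On the left are the AdmiR7a replicates (replicate 2 minus replicate 1) and on the right AdmiR7b minus the AdmiR7a mean, where the 78 genes past 0.58 on the same side of both AdmiR7a arrays are red and sit mostly at low levels.

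By limma, with a mean per vector and the spread taken from the AdmiR7a pair and all genes together, 0 genes (0%) passed a Benjamini-Hochberg adjusted p of 0.05, the lowest being 0.737. At an unadjusted p under 0.05 there were 608 genes (5.86%). The same fit called 0% of simulated differences at log2 sizes of 0.58, 1, 2 and 3, so its 0 does not show that the vectors act alike. The 95% interval of a gene's difference had a median width of 0.605 (log2). Every named difference below therefore failed the correction. Measured values are given, with an SE for some genes. The SE holds no spread of the single AdmiR7b array, which the fit assumes to vary like the AdmiR7a arrays. It was small where the AdmiR7a arrays agreed, even in dim genes. Over all genes between 4 and 6, however, the replicates differed by an SD of 0.340 (log2).

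Among genes higher with AdmiR7b, Trp53rkb, named for a kinase that acts on p53, stood at 6.07 on AdmiR7b against 4.79 and 4.84 on AdmiR7a and 4.88 on AdGFP. The AdmiR7b array alone was high, by 1.26 ± 0.07 (log2, SE). The zinc finger gene Zfp282 had a similar layout, with 6.89 on AdmiR7b, 5.98 and 5.86 on AdmiR7a and 5.64 on AdGFP, although its second probe set differed by only 0.05. Camkk2, a calcium-dependent kinase upstream of AMP-activated kinase, stood at 7.14 against 6.43 and 6.42, with 6.26 on AdGFP. Its difference was 0.71 ± 0.07, and its other 2 probe sets were 0.17 and 0.19 higher. Trp53rkb and Zfp282 were the only 2 genes at least 1 above AdGFP with AdmiR7b, at an AdmiR7b level of 6 or more, whose AdmiR7a arrays both lay within 0.58 of AdGFP.

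A further set was already above AdGFP with miR-7a and stood higher still with miR-7b. Ddit4l, a stress-induced inhibitor of mTOR, was at 3.87 on AdGFP, 5.74 and 6.19 on AdmiR7a and 7.0 on AdmiR7b, so its AdmiR7b value lay above both at a difference of 1.03 ± 0.26. Its 2 other probe sets were also higher with AdmiR7b, by 0.52 and 0.70. The stathmin gene Stmn4, which binds tubulin, stood at 2.90 on AdGFP, 5.97 and 6.03 on AdmiR7a and 6.66 on AdmiR7b. Ndnf, a secreted neurotrophic factor, was at 5.75, then 7.28 and 7.45, then 8.06. Dgat2, which makes triglyceride, was at 5.69, then 6.61 and 6.38, then 7.21, and its second probe set was 0.43 higher with AdmiR7b. In all 4 genes the order was AdGFP, AdmiR7a, AdmiR7b with no overlap. This follows from how they were picked, with AdmiR7b above both AdmiR7a arrays and AdmiR7a above AdGFP. Zfp282, Camkk2, Cd40, Dgka and Mrc2, named by the same size rule, had this order too. Their AdmiR7a means lay only 0.16 to 0.37 above AdGFP, against 0.80 to 3.10 in the 4 genes. Trp53rkb, Aplf and Tgif1 did not have it. The order alone therefore does not set the 4 genes apart.

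The rest of the 12 highest differed by 0.60 to 0.84 from the AdmiR7a mean. Aplf, a DNA strand-break repair factor, stood at 7.66 against 6.71 and 6.97, the homeobox repressor gene Tgif1 at 6.59 against 5.95 and 5.82, and the endocytic collagen receptor gene Mrc2 at 6.68 against 6.09 and 6.07. Dgka, a diacylglycerol kinase, was at 6.11 against 5.03 and 5.52. For Cd40, a receptor of the tumour necrosis factor family, AdmiR7b stood at 6.49 against 5.73 and 5.88, but its second probe set differed by -0.06.

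Below the level of 6 set for naming by size, the genes with the lowest unadjusted p included larger differences. Tceal7 stood at 5.66 on AdmiR7b and at 3.82, 3.79 and 3.75 on both AdmiR7a arrays and AdGFP, at or near background on the other arrays. It passed the filter at a mean of 4 only through its AdmiR7b value, so its place among the genes tested rests on that array. Napsa, which encodes the aspartic protease napsin A, was at 5.84 against 4.58 and 4.53, with 3.20 on AdGFP. In Inpp4b, a phosphoinositide phosphatase gene, AdmiR7b (5.37) was near AdGFP (5.34) and both AdmiR7a arrays were low (3.98 and 3.97).

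Among genes lower with AdmiR7b, the vasodilator peptide gene Adm (adrenomedullin) had the largest smaller difference to both AdmiR7a arrays at a level of 6 or more, at 6.17 on AdmiR7b against 7.22 and 7.23 on AdmiR7a and 7.59 on AdGFP. Its difference was -1.06 ± 0.07, making it 2.08-fold lower, and its second probe set was lower by more (-1.37). Kcnq1ot1, the long noncoding RNA of an imprinted cluster, stood at 6.88 against 7.92 and 7.96, with 8.47 on AdGFP. Its main probe set differed by -1.06 ± 0.07 and the other 2 by -0.30 and -0.08. Both genes were lowest on AdmiR7b, with the AdmiR7a arrays between it and AdGFP.

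Pfkfb3, Ak4 and Stc1 also stood among the 12 lowest. Pfkfb3, whose product drives glycolysis through fructose 2,6-bisphosphate, was at 8.0 on AdGFP, 7.01 and 6.74 on AdmiR7a and 5.93 on AdmiR7b. The adenylate kinase gene Ak4 was at 7.32 on AdGFP, 7.76 and 7.56 on AdmiR7a and 6.69 on AdmiR7b, and its second probe set was also lower (-0.67). The hormone gene Stc1 (stanniocalcin 1) was at 6.95, then 6.39 and 5.64, then 4.71, with AdmiR7a arrays that themselves differed by 0.75 in size and an SE of 0.41.

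The other genes of this group of 12 were the protocadherin gene Pcdhb16 (5.46 on AdmiR7b against 6.42 and 6.33), the chromatin organiser gene Satb1 (5.90 against 6.90 and 6.74), the zinc finger gene Zfp983 (6.91 against 7.70 and 7.70) and the synaptic pentraxin gene Nptx1 (5.29 against 6.05 and 6.35). Reps2, an endocytosis adaptor, stood at 5.41 against 6.20 and 6.12. Slc35c2, a transporter of the Golgi, stood at 7.43 against 8.19 and 8.13, but its second probe set differed by 0.09 the other way. The synaptotagmin gene Syt5, a calcium sensor of exocytosis, was at 6.04 on AdmiR7b and 5.95 on AdGFP, with both AdmiR7a arrays above them (7.0 and 6.74). Zfp983 had the same layout, with 6.74 on AdGFP. For these 2 genes the AdmiR7a arrays stood apart and AdmiR7b was near AdGFP.

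**Figure D2:**
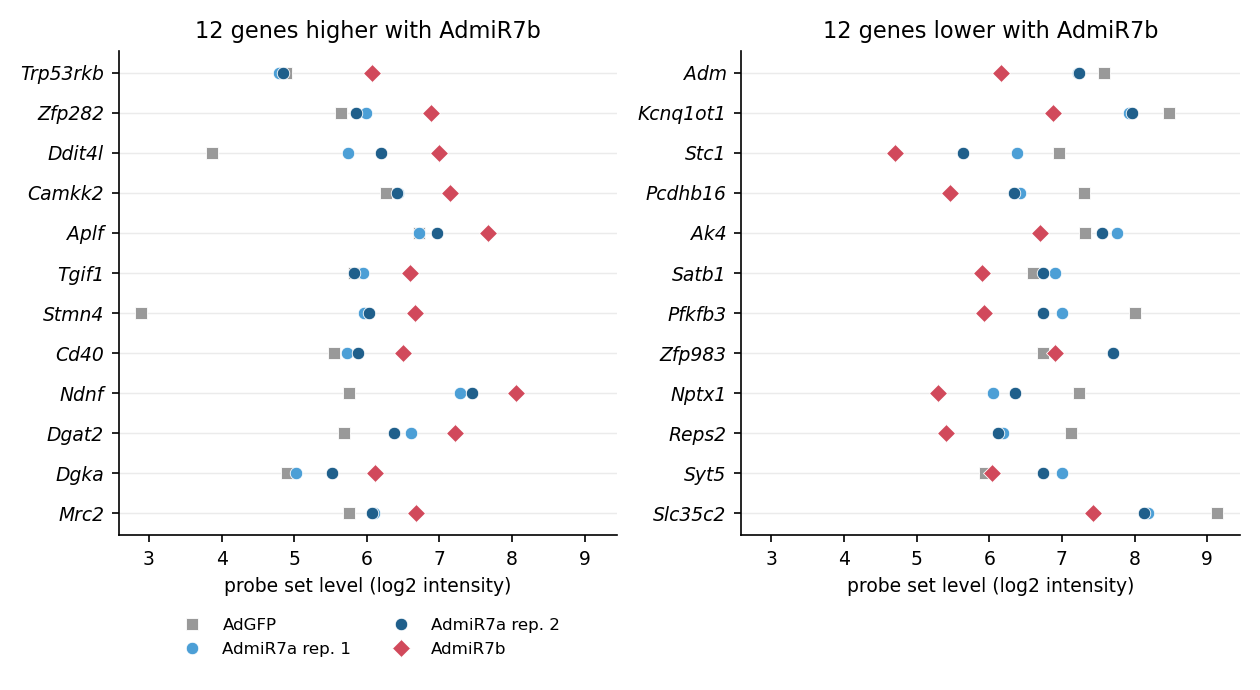
Probe set level (log2 intensity) of the 12 highest and 12 lowest genes on each MIN6 array: AdGFP grey squares, AdmiR7a replicates blue circles, AdmiR7b red diamonds. In each row the red diamond lies outside both blue circles, since the genes were chosen for that; the grey square lies beyond the blue circles in Stmn4 and Ndnf and beside the red diamond in Syt5 and Zfp983.

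Further lower genes with the lowest unadjusted p were Fut4, a fucosyltransferase gene (3.61 against 4.72 and 4.72), Ccdc173 (4.20 against 5.37 and 5.45) and the polarity gene Pard6b (3.46 against 4.57 and 4.66, its second probe set lower as well). Among genes at 6 or more on AdGFP, 6 lay at least 1 below it with AdmiR7b and within 0.58 on both AdmiR7a arrays. Besides Adm and Kcnq1ot1, they included the carnitine transporter gene Slc22a5 (5.42 on AdmiR7b, 6.23 and 6.08 on AdmiR7a, 6.65 on AdGFP), Phyhipl (9.02, 9.58 and 9.69, 10.11) and Zxda (7.04, 7.70 and 7.65, 8.09). In all 5 the AdmiR7a arrays lay below AdGFP too, by less. The main probe sets of Phyhipl and Zxda differed between the vectors by -0.61 and -0.63, but their second probe sets by only -0.26 and -0.04.

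Of the 33 genes past 0.58 with AdmiR7b higher, AdGFP lay below both AdmiR7a arrays in 20, at or above AdmiR7b in 3, between AdmiR7a and AdmiR7b in 5 and between the AdmiR7a arrays in 5. Of the 45 with AdmiR7b lower, AdGFP lay above both AdmiR7a arrays in 26, at or below AdmiR7b in 5, between AdmiR7a and AdmiR7b in 9 and between the AdmiR7a arrays in 5. How often AdGFP takes these places over all genes tested was not counted. The counts therefore only describe these genes and do not show a graded response.

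The response that the vectors share was compared in strength without letting AdGFP or the choosing array enter the difference. Genes were chosen as at least 1 (log2) from AdGFP in one AdmiR7a array, and AdmiR7b was then set against the other AdmiR7a array. Of 299 genes above AdGFP in replicate 1, AdmiR7b stood above replicate 2 in 224 (74.9%, against 57.7% of all genes tested), with a median difference of 0.14 (quartiles 0.00 and 0.31). Of 289 genes chosen by replicate 2, AdmiR7b stood above replicate 1 in 201 (69.6%, against 50.3%), with a median of 0.15. AdmiR7b was thus further from AdGFP than the AdmiR7a array in most of these genes, by a small amount.

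Genes below AdGFP gave the mirror image. Of 287 genes chosen by replicate 1, AdmiR7b stood below replicate 2 in 211 (73.5%, against 40.9% of all genes tested), with a median of -0.13, and of 310 chosen by replicate 2 it stood below replicate 1 in 236 (76.1%, against 48.5%), with a median of -0.17. The mean of both medians was 0.15 ± 0.01 (SD over the 2 ways of choosing) for the higher genes, 1.11-fold, and -0.15 ± 0.03 for the lower genes. For genes chosen by AdmiR7b itself, the replicates differed from each other by a median of 0.00 in 400 higher genes and -0.04 in 442 lower genes. Medians over all genes tested were 0.00 for AdmiR7b minus replicate 1 and 0.03 for AdmiR7b minus replicate 2. The displacement of AdmiR7b was thus larger than that between the replicates, and in opposite directions for the higher and the lower genes; with 1 AdmiR7b array it has no test.

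Set beside AdGFP, which these values share, genes chosen by replicate 1 as higher had a median of 1.26 on replicate 2 and 1.44 on AdmiR7b, and genes chosen as lower -1.25 and -1.37. Counted from AdGFP alone, 229 genes were at least 1 higher in both AdmiR7a arrays (2.21%) and 400 on AdmiR7b (3.86%), and 223 (2.15%) and 442 (4.26%) were lower; the first count of each pair needs 2 arrays and the second only 1. Among genes at least 2 from AdGFP the displacement held for the higher genes (medians 0.17 and 0.25, of 44 and 41 genes) and was not clear for the lower ones (-0.08 and -0.00, of 17 and 17 genes).

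**Figure D3:**
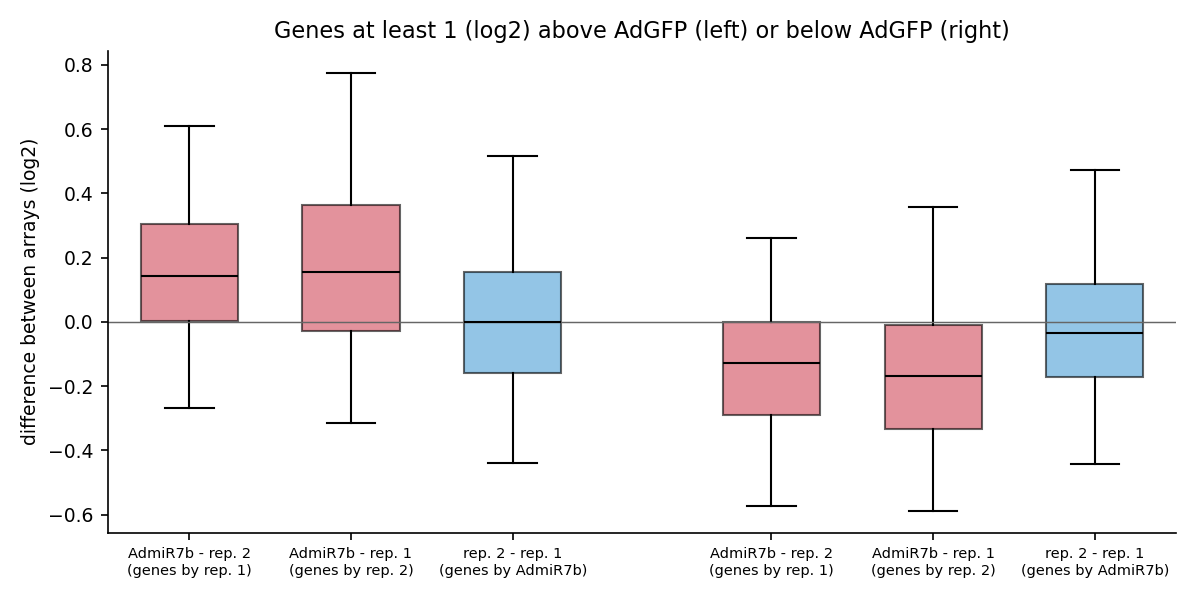
Difference between arrays (log2) over genes at least 1 above AdGFP (left) or below it (right), with boxes from the lower to the upper quartile, the median as a line and whiskers at the 5th and 95th percentiles. Red boxes are AdmiR7b minus the AdmiR7a array that did not choose the genes, with medians of 0.14 and 0.15 on the left and -0.13 and -0.17 on the right; blue boxes are AdmiR7a replicate 2 minus replicate 1 over genes chosen by AdmiR7b, with medians near 0.

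Of the 10 genes with the largest AdmiR7a differences from AdGFP, most had AdmiR7b between or near the AdmiR7a arrays. Defb1, an antimicrobial defensin gene, was at 2.57 on AdGFP, 7.26 and 6.90 on AdmiR7a and 6.94 on AdmiR7b. Plet1 was at 2.38, then 5.90 and 6.34, then 6.42, and Klhdc8b at 4.10, then 7.26 and 7.0, then 7.16. Among the lowest, Ctsk, the protease cathepsin K, was at 8.60, then 5.31 and 5.39, then 5.31, and Il4 was below 4 on all miR-7 arrays. Tacr3, the neurokinin B receptor gene, was at 8.74, then 5.22 and 6.14, then 5.47. AdmiR7b lay between or within 0.1 of the AdmiR7a arrays in all 6. Outside both AdmiR7a arrays by more, 1700007K13Rik (9.71 against 8.97 and 9.27) and Tcim (6.93 against 5.97 and 6.77) stood higher on AdmiR7b, and Gm15408 lower (5.96 against 6.23 and 6.31).

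The study's own miR-7 targets, a list chosen on these samples and so no independent evidence, were low with both vectors. Of 6 measured, AdmiR7b lay below both AdmiR7a arrays in 5 (29.4% of all genes tested did) and above both in 1 (38.9%), with a median difference of -0.16, against 0.02 over all genes. Without AdmiR7a replicate 1 that median was -0.08, and without replicate 2 it was -0.16. Cplx1, the fusion clamp complexin, stood at 9.44 on AdGFP, 7.67 and 7.38 on AdmiR7a and 7.28 on AdmiR7b. The difference between the vectors was -0.24, with a 95% interval from -0.86 to 0.38, and its second probe set differed by -0.53. Zdhhc9, a palmitoyltransferase gene, was at 7.02, then 5.40 and 5.56, then 5.27 (difference -0.20, interval from -0.59 to 0.18).

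The vesicle chaperone gene Dnajc5 was at 10.4, then 9.52 and 9.48, then 9.32 (interval of the difference from -0.42 to 0.07). Of its 4 other probe sets 3 lay on the same side, with differences from -0.11 to 0.12 among the 4. Phactr1, a phosphatase and actin regulator gene, was at 8.29, then 7.18 and 7.04, then 6.96 (-0.50 to 0.22, second probe set -0.46), and the profilin gene Pfn2 at 12.7, then 11.9 and 11.9, then 11.8 (-0.31 to 0.15). Wipf2, an actin nucleation adaptor gene, was at 7.19, then 6.38 and 6.22, then 6.40, the only 1 of the 6 above both AdmiR7a arrays. No interval among the 6 left out 0, and their widths also do not show that the vectors act alike on them.

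Targets described in other systems had a median of -0.04, against 0.02 over all genes. Of 21 measured, 10 were below both AdmiR7a arrays (29.4% of all genes were) and 5 above (38.9%). Igf1r, the IGF1 receptor gene, was at 8.48 on AdmiR7b against 8.75 and 8.56, but its 3 other probe sets differed by -0.24 to 0.63. Parp1, a DNA repair enzyme gene, was at 8.84 against 8.77 and 9.19, and Irs2, an insulin receptor substrate gene, at 7.50 against 7.49 and 7.45. The members furthest above were Egfr, the EGF receptor gene, at 7.47 against 6.95 and 7.32, with its 2 other probe sets higher by 0.31 and 0.43, and Klf4, a zinc finger factor gene, at 9.14 against 8.78 and 8.84, with its second probe set on the other side. Bcl2, an inhibitor of cell death, was at 6.51 against 6.73 and 6.76. In insulin and mTOR signalling, 4 of 21 were below and 8 above both (median 0.04), beside the same shares of all genes. Insr, the insulin receptor gene, had the lowest difference of the list, at 7.10 against 7.84 and 7.54.

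Beta-cell transcription factor genes leaned lower with AdmiR7b: of 14 measured 9 lay below both AdmiR7a arrays (29.4% of all genes did) and 2 above (38.9%), with a median of -0.12. Pax6, a factor of endocrine cells, stood at 12.1 on AdGFP, 11.3 and 11.1 on AdmiR7a and 10.9 on AdmiR7b. Myt1 was at 8.98 on AdmiR7b against 9.31 and 9.32, level with AdGFP (9.32), so AdmiR7b alone was low. St18 was at 9.79 against 9.98 and 10.02, Nkx2-2 at 9.58 against 9.78 and 9.70, and Nkx6-1 at 10.2 against 10.3 and 10.2. Pdx1, the factor that marks the pancreas, was at 12.1 against 12.2 and 12.3, whereas Foxa2 (10.85 on AdmiR7b against 10.85 and 10.90) and Neurod1 (13.4 on AdmiR7b) lay between the AdmiR7a arrays. Mnx1 (8.18 against 8.0 and 8.17) and Foxa1 (5.29 against 4.63 and 5.12) were above both.

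Insulin production, granule, exocytosis and actin genes had medians nearer 0. Over all genes 29.4% lay below and 38.9% above both AdmiR7a arrays. Of 22 insulin production and granule genes measured, 8 lay below and 6 above both AdmiR7a arrays (median -0.02), none past 0.58 (0 genes). Ins2 stood at 15.9 on AdmiR7b against 15.9 and 15.7, and the convertase gene Pcsk1 at 11.9 against 11.9 and 11.9. The clearest members were G6pc2, the islet glucose-6-phosphatase gene (14.7 against 14.9 and 14.9), and the incretin receptor gene Glp1r (6.38 against 6.70 and 6.57). Of 28 exocytosis genes 12 were below and 10 above both (median -0.02), with Syt5 the only 1 past 0.58. Unc13b, a vesicle priming factor gene, was at 8.49 against 8.74 and 8.73. Of 25 actin regulator genes 9 were below and 10 above. Wipf1, a partner of the nucleation factor N-WASP, was at 7.96 against 8.54 and 8.43, but its second probe set differed by only -0.10.

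Genes that p53 induces leaned the other way. Of 19 measured 13 lay above both AdmiR7a arrays (38.9% of all genes did) and 4 below (29.4%), with a median of 0.18 and none past 0.58 (0 genes). Cdkn1a, the cell cycle inhibitor p21, was at 11.1 on AdGFP, 11.80 and 12.02 on AdmiR7a and 12.4 on AdmiR7b. Mdm2, which marks p53 for degradation, was at 7.82, then 8.69 and 8.77, then 9.10. Phlda3, an inhibitor of Akt, was at 4.11, then 6.16 and 6.56, then 6.84, and the death receptor gene Eda2r at 2.88, then 4.72 and 4.75, then 5.07. Sesn2 was level on AdGFP and AdmiR7a (8.97, 8.88 and 9.01) and at 9.29 on AdmiR7b. Zmat3 stood at 8.34 on AdmiR7b against 8.53 and 8.34, and Sesn1, at 9.62, lay between the AdmiR7a arrays (9.49 and 10.3). The list's medians against the shared AdGFP array were 0.44 with AdmiR7a and 0.59 with AdmiR7b.

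Of 6 measured interferon-induced genes 5 lay above both AdmiR7a arrays (38.9% of all genes did) and 0 below (median 0.19). The other genes of this list on the array, which holds 23 of them, were under the level filter, and with no filter the median was 0. The antiviral gene Rsad2 was at 7.88 on AdmiR7b against 7.70 and 7.49, Usp18 at 8.70 against 8.45 and 8.56, and Irf9, a subunit of the interferon response complex, at 6.75 against 6.54 and 6.63. Members of the lists of NF-kappaB genes (2 above and 2 below, of 6), heat shock chaperones (7 and 3, of 17), endoplasmic reticulum stress (10 and 4, of 24) and microRNA machinery (6 and 6, of 15) fell on both sides, with medians from -0.01 to 0.05. Of 23 immediate early genes 8 were above and 10 below (38.9% and 29.4% of all genes tested). Among them Maff, a small Maf factor gene, stood at 5.97 against 6.93 and 6.64, with 7.88 on AdGFP, and Ier2 at 8.90 against 8.55 and 8.61.

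Respiratory chain, ribosomal protein, cell cycle and glutathione genes lay slightly higher on AdmiR7b. Over all genes 38.9% lay above and 29.4% below both AdmiR7a arrays. Of 39 respiratory chain genes 25 were above and 4 below (median 0.06, and -0.08 for replicate 2 minus replicate 1), and of 27 ribosomal protein genes 18 and 5 (median 0.06, and -0.06 between the replicates). Both of these lists lay higher mainly against replicate 2, with medians of 0.10 and 0.08, and by 0.02 and 0.02 against replicate 1. Of 29 cell cycle genes 19 were above and 7 below (median 0.06, and -0.00 between the replicates), with Bub1b, a spindle checkpoint kinase gene, at 10.1 against 9.78 and 9.86. Of 21 glutathione and oxidative stress genes 12 were above and 5 below (median 0.07, and 0.00 between the replicates), among them Cth, the cystathionine gamma-lyase gene, at 7.79 against 7.55 and 7.59, with 9.98 on AdGFP. Besides Stmn4, the kinesin light chain gene Klc4 was higher, at 7.74 against 7.31 and 7.32. Among MAP kinase genes, Mapkapk3 stood at 6.57 on AdmiR7b against 5.51 and 6.01, and its relative Mapkapk2 lay the other way, at 6.51 against 6.87 and 6.86.

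The remaining lists followed the same pattern of small values on both sides. Of 19 cholesterol genes 7 were above and 5 below both AdmiR7a arrays (median 0.01), against 38.9% and 29.4% of all genes tested. The squalene synthase gene Fdft1 was at 12.6 against 12.4 and 12.4. Of 14 glycolysis genes 7 were above and 4 below (median 0.05), led by Ldhb, a lactate dehydrogenase subunit gene, at 9.30 against 8.92 and 8.97 with its 3 other probe sets on the same side. Of 15 genes that beta cells normally keep low 7 were above and 5 below (median 0.07), and of 3 measured histone genes 1 was above and 2 below. Markers of other cell types with at least 3 genes measured had medians of 0.09 (4 alpha-cell genes), 0.11 (4 delta, PP and epsilon genes) and 0.07 (4 endothelial genes). Single duct (0.03), acinar (-0.21) and stromal (0.24) genes were measured, and 0 immune genes.

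**Figure D4:**
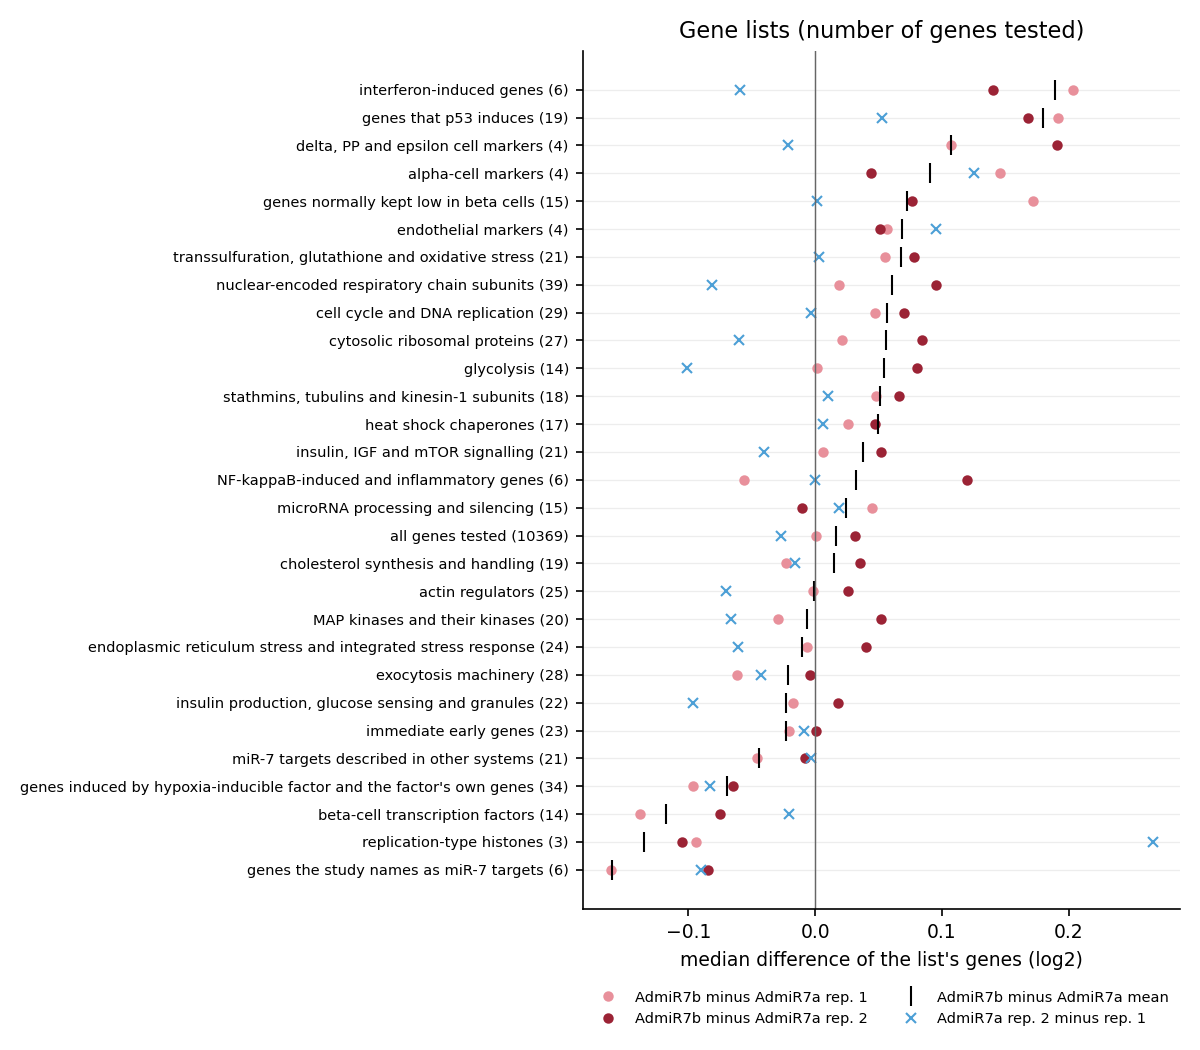
Median difference (log2) of each gene list with at least 3 genes measured, the number in parentheses: AdmiR7b minus AdmiR7a replicate 1 (light red) and replicate 2 (dark red), minus the AdmiR7a mean (black bar) and AdmiR7a replicate 2 minus replicate 1 (blue crosses). The study's targets and beta-cell factors lie at -0.16 and -0.12, p53-induced and interferon-induced genes at 0.18 and 0.19, and all genes tested at 0.02.

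Because Adm, Stc1, Ak4 and Pfkfb3 are textbook targets of hypoxia-inducible factor, which switches cells to glycolysis when oxygen is low, a list of its targets and its own genes was added after these values were seen. It is a description of where the genes lie and gets no test. Of 34 members measured, 21 lay below both AdmiR7a arrays (29.4% of all genes did) and 7 above (38.9%). Past 0.58 below both were 5 (0.434% of all genes), and past 0.58 above were 0. The 5 were the 4 genes that prompted the list, whose place was thus fixed in advance, and Slc2a1, the GLUT1 glucose transporter gene. Set beside the shares of all genes, these counts are therefore no evidence about the list. Slc2a1 stood at 10.9 on AdGFP, 10.2 and 10.2 on AdmiR7a and 9.58 on AdmiR7b. Its difference was -0.62 ± 0.07, its other 2 probe sets were at -0.57 and -0.48, and it was the only gene past 0.58 with a mean level above 10.

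Pdk1, which keeps pyruvate out of mitochondria, was at 9.87 on AdmiR7b against 10.3 and 10.4, level with AdGFP (9.89), and its other probe sets were at -0.33 and -0.17. Vegfa, the vascular growth factor gene, was at 10.4 against 10.7 and 10.7, with 11.5 on AdGFP, but its second probe set differed by only -0.04. Members of the same list that differed little, or lay above, were the glycolytic genes Pgk1 (13.4 on AdmiR7b against 13.6 and 13.4), Aldoa (13.5 against 13.5 and 13.3) and Tpi1 (13.9 against 14.0 and 13.9), the stress gene Ddit4 (9.78 against 9.80 and 9.78) and Ndrg1 (11.6 against 11.4 and 11.5). Pfkfb4 was higher, at 6.77 against 6.47 and 6.21. Hif1a itself was at 12.1 against 12.1 and 12.2, and its 2 other probe sets differed by -0.35 and 0.57. The median of the list was -0.07, and the median for replicate 2 minus replicate 1 was -0.08.

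**Figure D5:**
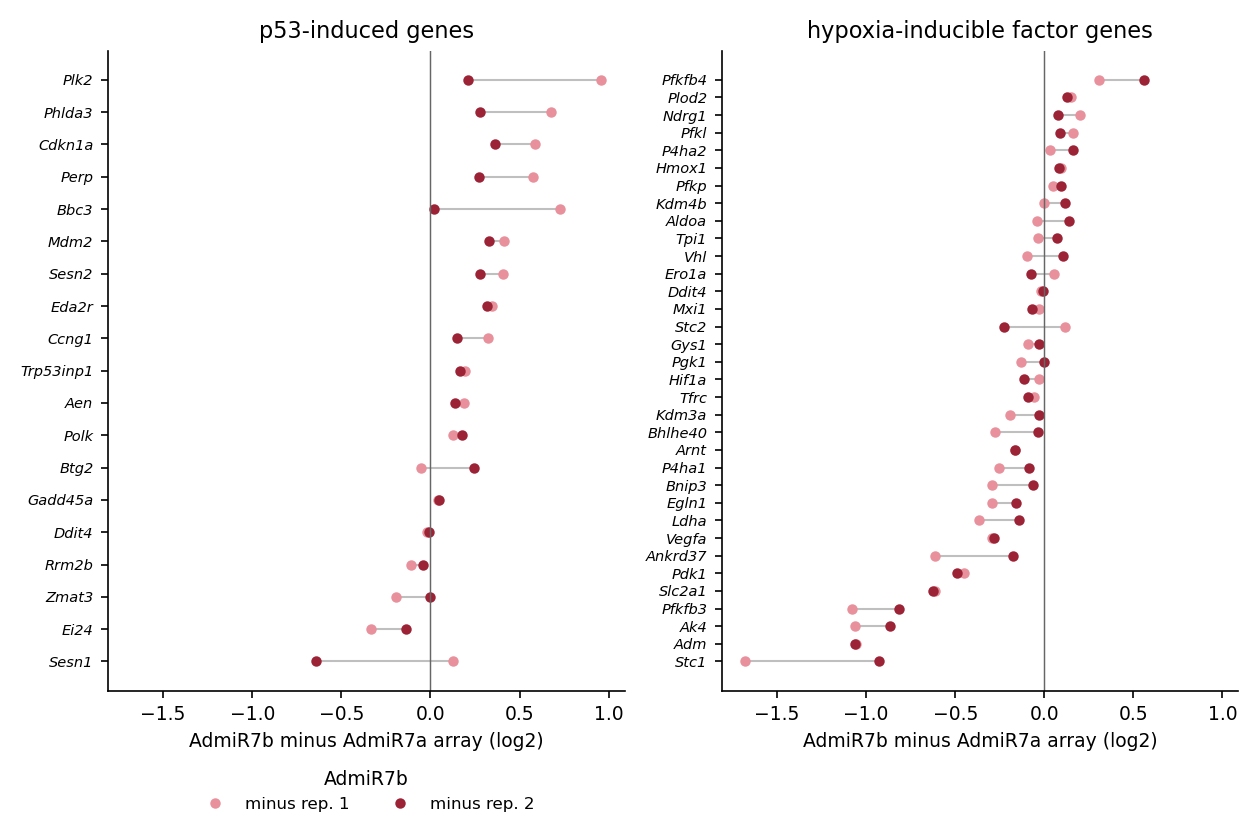
AdmiR7b minus AdmiR7a replicate 1 (light red) and replicate 2 (dark red), in log2, for each measured gene of the p53-induced list (19 genes) and of the hypoxia-inducible factor list (34 genes, chosen after the values were seen). Cdkn1a and Mdm2 lie right of 0 on both arrays, and Adm, Stc1, Ak4, Pfkfb3 and Slc2a1 lie furthest left.

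For genes of this list that stood lower together, the 250 bases before the start site were searched for ACGTG, the core of the factor's binding element, on both strands. On GRCm38.p6, 16.6% of 32851 RefSeq promoter windows of that length and 22.3% of 10988 windows of genes tested held it. Of 42 windows of list members 20 held it (47.6%), a list made of known targets of the factor. The windows of Slc2a1 (chr4:119108495-119108744, plus strand) and of the first Pfkfb3 start site in the table (chr2:11553930-11554179, minus strand) are shown 5′ to 3′ with the motif in capitals, 36 and 60 bases before the start. The window of Adm held none, which says only that these letters are not in it, and Stc1 had no entry. Of 4 Ak4 windows 3 held none.
Slc2a1: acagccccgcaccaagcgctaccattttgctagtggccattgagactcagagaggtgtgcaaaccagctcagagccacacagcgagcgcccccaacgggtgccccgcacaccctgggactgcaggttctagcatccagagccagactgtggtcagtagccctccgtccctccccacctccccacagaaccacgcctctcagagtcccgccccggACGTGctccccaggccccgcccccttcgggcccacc
Pfkfb3: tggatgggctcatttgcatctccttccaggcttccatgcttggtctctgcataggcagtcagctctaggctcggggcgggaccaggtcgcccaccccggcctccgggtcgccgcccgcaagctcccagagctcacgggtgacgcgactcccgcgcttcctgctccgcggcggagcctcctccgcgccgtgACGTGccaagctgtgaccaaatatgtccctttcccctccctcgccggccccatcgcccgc
A match is a description of the sequence. Neither binding nor activity of the factor was measured, and its part in the lower values was not tested.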

How the data were processed

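The deposited table holds log2 intensities of 45101 probe sets that the authors made with GCRMA in the affy package (versions not given in the sources used here), per the submitters' processing notes. GCRMA corrects the background from probe sequence and normalizes between arrays, and 28.9% of probe sets stood at the lowest value on AdmiR7b, so low genes have only a bound. The scanner files were not used. Of the probe sets, 34958 carried 1 gene symbol, 932 several and 9211 none. Symbols were updated through Entrez identifiers (34754 found in RefSeq). Each of 18194 genes was represented by the probe set brightest on average across the 4 MIN6 arrays, and 10369 had a mean of at least 4.

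limma 3.58.1 (R 4.3.3) was fitted with a mean per vector, leaving 1 residual degree of freedom. It assumes that the lone AdmiR7b array varies like the AdmiR7a arrays. Simulated data, in which 200 genes were changed, served to test the fit. Counts by size and medians carry no test. Precision is limited by the number of arrays.

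Named genes were the 12 highest and 12 lowest by the smaller difference to both AdmiR7a arrays (higher group at least 6), the 5 with the lowest p in each direction, 2 per list, all study targets, and the ends of the AdmiR7a response and of genes past 1 with AdmiR7b alone. Members of lists beyond these were named after their values were seen. The members and the 31 lists were chosen with earlier results of these data known, and the hypoxia list was added later. Alternatives were other probe set rules, filters, normalizations and variance priors, and leaving out each AdmiR7a array.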

Additional observations from a re-analysis of the deposited data

Results flagged for a closer look

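In 3 of the 24 genes named by size, AdmiR7b and both AdmiR7a arrays lay on opposite sides of AdGFP; the difference in direction was not tested, and all 3 share the single AdGFP array. Trp53rkb was 1.26 (log2) higher with AdmiR7b than with AdmiR7a, with the AdmiR7a arrays (4.79 and 4.84) just under AdGFP (4.88). Ak4 differed by -0.96 between the vectors, with AdGFP at 7.32 between AdmiR7a (7.76 and 7.56) and AdmiR7b (6.69). Satb1 differed by -0.92, with AdGFP at 6.60 between AdmiR7a (6.90 and 6.74) and AdmiR7b (5.90), and of its 2 other probe sets 1 lay on the same side.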

How the results depend on the processing

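The limma count was 0 in the main fit and under all 8 alternatives in which it could be computed, while 536 to 1891 genes had an unadjusted p under 0.05; adjusted p-values reached down to 0.0632 with no filter. Leaving out an AdmiR7a array leaves no residual degree of freedom and so gives no test. The counts past 0.58 (33 higher, 45 lower) became 13 and 13 with averaged probe sets, 7 and 21 with a filter at 6, and 89 higher with no filter; past 1 (6 and 7) they became 1 and 2, 0 and 2, and 20 higher. Against only 1 AdmiR7a array the counts ranged from 81 to 123 higher and 101 to 116 lower past 0.58, and from 18 to 18 higher and 17 to 19 lower past 1. Of the 78 genes past 0.58, 48 were measured with averaged probe sets, and 20 of them stayed past it and 47 on the same side. The displacement of AdmiR7b in the shared response kept its sign throughout: 0.15 became 0.16 when the arrays were normalized again, 0.11 for genes chosen at 0.58 and 0.21 at 2, and -0.15 became -0.11 with averaged probe sets, -0.11 at 0.58 and -0.040 at 2. It needs both AdmiR7a arrays, so none could be left out. Of 245 list medians under alternatives 199 moved by less than the spread between the AdmiR7a arrays and 16 changed sign, 0 of them in the 8 lists with a median of at least 0.1 in size. A median that fell to 0 was not counted as a change of sign. Among these 8 lists, interferon-induced genes, histones, delta, PP and epsilon markers, acinar markers and stromal markers had a median of 0 with no filter. In 4 of the 16 the main median had exceeded that spread: heat shock chaperones (-0.0027) and genes kept low in beta cells (-0.090) with averaged probe sets, the latter also with a filter at 6 (-0.085), and immediate early genes without AdmiR7a replicate 1 (0.00095, against -0.020 without replicate 2); the cause was not tested. No paired analysis was possible because the AdmiR7b array carries no replicate number. Depth is set by signal over background: 20 of the 78 genes had an array below 4.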
